A study of Mus musculus with 13 samples.

Results

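Expression of 7 ion channel genes was followed in microglia, the resident macrophages of the brain. They were the potassium channel genes Kcnj2, Kcna3, Kcnk13, Kcnk6 and Kcnn4, the proton channel gene Hvcn1 and the cation channel gene Trpv2. The genes were chosen by symbol, and all 7 were present among the 19737 genes of the expression table. Kcna3 was included because it had been seen to differ between the circRNA and PKR knockout groups, so its values in those groups are given as a description.

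Potassium channels set the membrane potential of microglia and provide the path for potassium efflux. Loss of intracellular potassium is a known trigger of the NLRP3 inflammasome, which processes interleukin-1β. The voltage-gated proton channel carries out the acid that the phagocyte NADPH oxidase leaves in the cytosol when it makes superoxide. TRPV2 is a calcium-permeable cation channel of macrophages.

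RNA was depleted of ribosomal RNA and sequenced in 13 libraries from 4 groups of mice. WT EGFP (n = 3) was wild type, and 5xFAD EGFP (n = 2) carried the 5xFAD transgenes, which the neuronal Thy1 promoter drives as a model of amyloid disease. Both had received AAV PHP.eB-EGFP, an adeno-associated virus whose capsid enters the mouse brain, carrying a fluorescent protein. In the 5xFAD circRNA group (n = 4) the AAV PHP.eB vector encoded the circular RNA circPOLR2A. Its treatment labels carry different numbers after the name, namely 9,10 in replicate 1, 9,11 in replicate 2, 9,12 in replicate 3 and 9,13 in replicate 4, and the libraries were grouped by title. The 5xFAD PKR KO group (n = 4) was 5xFAD with knockout of PKR, a kinase that senses double-stranded RNA. The labels name no vector for it, so the knockout and a difference in vector cannot be told apart. The age and sex of the mice, the isolation of the cells and the kind of knockout allele are not given in the sources used here. Values are FPKM, fragments scaled to gene length and to the fragment total of the library, which can be compared between genes.

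Depth recovered from the steps of low FPKM values was 45.2 M to 70.0 M fragments a library (M, mega), and the 4 PKR knockout libraries were the deepest. All 11 microglial markers were detected, with a summed level of 2811 to 4995 FPKM. WT EGFP replicate 3 stood apart, with the lowest sum of microglial markers (2811 FPKM, against 4393 and 4492 FPKM in the other WT libraries) and the highest sum of 6 oligodendrocyte markers (1564 FPKM, against 384 and 342 FPKM). Eif2ak2, which encodes PKR, was at 3.31 to 4.61 FPKM in the PKR knockout libraries, 6.49 to 8.11 FPKM in the other 5xFAD libraries and 4.14 to 5.23 FPKM in WT EGFP. The knockout range was below every other 5xFAD library and overlapped the wild type range. In bulk RNA, fewer cells of a type and less RNA per cell cannot be told apart.

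Kcnj2 and Kcna3 were the members that rose in 5xFAD EGFP against wild type EGFP, and their promoters are shown beside that of Kcnk13, which did not pass the test. RefSeq promoter windows (GRCm38.p6) were found for 5 of the 7 genes. Each sequence is the 250 bases before the annotated start site on the plus strand, from chr3:107035912-107036161 for Kcna3, chr11:111065914-111066163 for Kcnj2 and chr12:99964249-99964498 for Kcnk13. Capitals mark the motif matches described after them.
Kcna3: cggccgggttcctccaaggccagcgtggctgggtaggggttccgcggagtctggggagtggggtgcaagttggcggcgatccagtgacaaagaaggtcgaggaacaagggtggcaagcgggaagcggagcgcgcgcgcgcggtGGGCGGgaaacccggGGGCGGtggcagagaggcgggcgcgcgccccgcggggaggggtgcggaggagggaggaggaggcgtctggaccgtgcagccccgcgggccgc
Kcnj2: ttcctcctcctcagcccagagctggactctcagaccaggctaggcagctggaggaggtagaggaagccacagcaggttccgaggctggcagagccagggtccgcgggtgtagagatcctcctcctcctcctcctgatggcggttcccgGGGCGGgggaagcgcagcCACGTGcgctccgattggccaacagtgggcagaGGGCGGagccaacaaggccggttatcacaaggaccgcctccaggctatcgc
Kcnk13: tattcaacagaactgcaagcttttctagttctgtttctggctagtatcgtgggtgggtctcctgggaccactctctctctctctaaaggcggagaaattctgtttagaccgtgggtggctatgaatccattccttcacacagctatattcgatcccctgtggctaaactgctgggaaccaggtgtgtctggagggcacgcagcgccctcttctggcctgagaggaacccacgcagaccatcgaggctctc

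The windows of Kcna3 and Kcnj2 were rich in G and C, at 74.4% and 65.6%, and the Kcnk13 window was at 52.8%, against a median of 52.4% over 32851 RefSeq windows. The capitals in Kcna3 are 2 copies of the GC box GGGCGG, whose first bases lie 107 and 92 bases before the start. Kcnj2 had 2 copies, 102 and 51 bases before its start, and 1 E-box CACGTG 84 bases before it. A GC box was present in 32.7% of all windows and the E-box in 6.02%. The 9 other motifs had no match in these 3 windows on either strand. They were the PU.1 core GAGGAAGT (in 2.44% of all windows), AP-1 TGANTCA (6.75%), CRE TGACGTCA (1.55%), the ATF4 composite site TGATGNAA (3.45%), the interferon response element (2.98%), STAT TTCNNNGAA (7.02%), the CLEAR box TCACGTGA (0.785%), the TATA box TATAAA (12.4%) and EGR1 GCGGGGGCG (2.57%). The CLEAR box contains the E-box, so those searches overlap. Among the other members, Trpv2 had a PU.1 core 14 bases before its first start site, and Kcnn4 had 1 GC box and 1 E-box.

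Kcnj2 encodes Kir2.1, an inward rectifier that holds the resting potential near the potassium equilibrium. The gene lies on chromosome 11 from 111066164 to 111076821, plus strand (GRCm38). Its level was 5.86, 6.29 and 5.15 FPKM in the WT EGFP libraries, 31.4 and 31.4 FPKM in 5xFAD EGFP, 37.4, 40.3, 36.3 and 33.9 FPKM in 5xFAD circRNA, and 27.8, 33.6, 29.7 and 38.0 FPKM in 5xFAD PKR KO. Every 5xFAD library was above every wild type library. Wild type averaged 5.77 ± 0.58 FPKM (SD, n = 3), and 5xFAD EGFP averaged 31.4 ± 0.02 FPKM (SD, n = 2), 5.44 times as much. On the log2(FPKM + 1) scale, on which all changes below are given, the rise was 2.26 (SE 0.13, limma adjusted p = 2.82e-07 over 10817 genes). Against wild type it also rose with circRNA, by 2.49 (limma adjusted p = 1.22e-08), and in PKR knockout, by 2.29 (limma adjusted p = 2.11e-08). These 3 comparisons share the wild type libraries. Without WT EGFP replicate 3 the rises were 2.19, 2.42 and 2.22.

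Kcnj2 is also used by brain endothelial cells, whose markers moved the other way in 5xFAD EGFP against wild type. The 8 endothelial markers summed to 78.0 to 183 FPKM in WT EGFP and to 34.5 to 49.4 FPKM in 5xFAD EGFP, and 7 of the 8 fell in limma. None of the 8 was at 0 throughout a group. Markers of pericytes and smooth muscle cells fell in 6 of 6 tested (median log2 change -1.44), with sums over 8 markers of 57.0 to 126 FPKM in WT EGFP and 20.8 to 37.9 FPKM in 5xFAD EGFP. Border macrophage markers, which share much of the microglial program, fell as well, with 6 of 6 lower and sums of 41.9 to 66.3 FPKM in wild type and 20.0 to 28.6 FPKM in 5xFAD EGFP. In circRNA against EGFP within 5xFAD the endothelial markers were higher, as Kcnj2 was, with sums of 49.0 to 100 FPKM with circRNA. Their median log2 change was 0.63, with 0 of 8 past the threshold in limma and 3 at an unadjusted p under 0.05. The median was 0.29 for pericyte and smooth muscle markers and -0.08 for border macrophage markers. The part of these cells in the Kcnj2 differences was not tested.

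Kcna3 encodes Kv1.3, a voltage-gated potassium channel of activated microglia and T cells. It is a gene of 1 annotated exon on chromosome 3, from 107036169 to 107038070 on the plus strand. Its level was 1.42, 1.32 and 1.32 FPKM in WT EGFP and 6.89 and 7.67 FPKM in 5xFAD EGFP. The groups did not overlap, with averages of 1.36 ± 0.06 FPKM (SD, n = 3) in wild type and 7.28 ± 0.55 FPKM (SD, n = 2) in 5xFAD EGFP, 5.36 times as much. The log2 change was 1.81 (SE 0.11, limma adjusted p = 5.44e-07), and 1.80 without WT EGFP replicate 3.

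In 5xFAD circRNA the Kcna3 level was 7.43, 5.84, 5.82 and 5.44 FPKM, and in 5xFAD PKR KO it was 10.6, 10.2, 9.74 and 11.9 FPKM. All 4 PKR knockout libraries were above all 9 others in the study, whereas the circRNA libraries overlapped 5xFAD EGFP. The mean was 6.13 ± 0.88 FPKM (SD, n = 4) with circRNA and 10.6 ± 0.92 FPKM (SD, n = 4) in PKR knockout, a log2 difference of -0.71 for circRNA against PKR knockout. This is the contrast that led to the choice of the gene, so no test is given. Against 5xFAD EGFP the log2 differences were -0.22 with circRNA and 0.48 in PKR knockout, likewise without a test because the same libraries enter. T and B lymphocytes also use Kcna3, and their 10 markers summed to 2.86 to 4.53 FPKM in WT EGFP, 2.79 to 2.90 FPKM in 5xFAD EGFP, 2.51 to 4.52 FPKM with circRNA and 2.07 to 3.59 FPKM in PKR knockout. Cd79b made up most of this sum, at 1.41 to 3.86 FPKM over all libraries. Of the T cell markers, Cd3e and Lck were low but higher in 5xFAD, as Kcna3 was. Cd3e, of the T cell receptor complex, was at 0.00514 to 0.0146 FPKM in wild type and 0.0232 to 0.107 FPKM in the 5xFAD libraries. The T cell kinase gene Lck was at 0.0542 to 0.0744 FPKM in wild type and 0.0933 to 0.21 FPKM in 5xFAD, and for both genes the ranges were separate. Cd4, the most abundant T cell marker listed, was lower in 5xFAD EGFP (0.248 to 0.394 FPKM) and PKR knockout (0.209 to 0.335 FPKM) than in wild type (0.415 to 0.801 FPKM), and overlapped wild type with circRNA (0.356 to 0.493 FPKM). Cd3d, Cd3g and Cd8a overlapped between wild type and 5xFAD, and the part of lymphocytes in the Kcna3 difference was not tested.

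**Figure D1:**
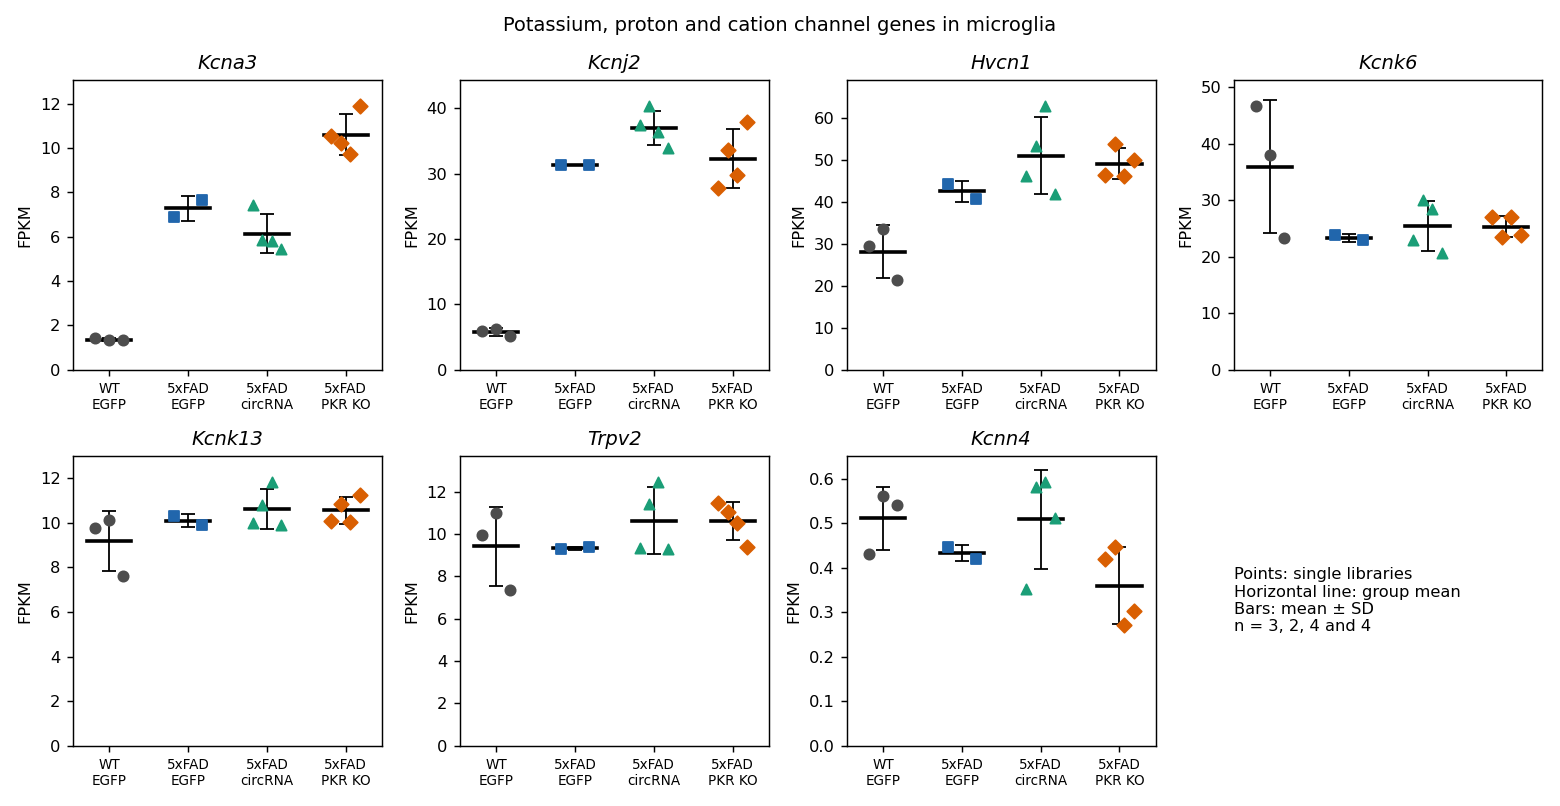
FPKM of the 7 channel genes (vertical axes from 0) in each of the 13 libraries by group, with points for single libraries and lines and bars for the mean ± SD (n = 3, 2, 4 and 4). Kcnj2 and Kcna3 in every 5xFAD library lie above every wild type library, and Kcna3 is highest in the 4 PKR knockout libraries, at 9.74 to 11.9 FPKM.

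Hvcn1 encodes Hv1, the voltage-gated proton channel. It lies on chromosome 5 from 122206804 to 122242297, plus strand. Its level was 29.6, 33.5 and 21.3 FPKM in WT EGFP, 44.3 and 40.6 FPKM in 5xFAD EGFP, 46.1, 53.3, 62.7 and 41.8 FPKM with circRNA, and 46.4, 53.8, 46.1 and 50.0 FPKM in PKR knockout. No 5xFAD library overlapped wild type, with WT EGFP replicate 3 the lowest of all 13. Between 5xFAD EGFP and wild type the log2 difference was 0.60 (SE 0.19, 95% interval 0.19 to 1.01), and limma's adjusted p of 0.0531 missed the threshold of 0.05. The call was made under median-ratio scaling (0.63, limma adjusted p = 0.0208) and without WT EGFP replicate 2 (0.73, limma adjusted p = 0.0253), and without replicate 3 the difference was 0.42 (limma adjusted p = 0.0936). Against wild type Hvcn1 rose with circRNA by 0.84 (SE 0.16, limma adjusted p = 0.00190), with means of 28.1 ± 6.22 FPKM (SD, n = 3) and 51.0 ± 9.15 FPKM (SD, n = 4). It rose in PKR knockout by 0.80 (SE 0.16, limma adjusted p = 0.00201), to 49.1 ± 3.64 FPKM (SD, n = 4). Without WT EGFP replicate 3 these rises were 0.66 (limma adjusted p = 0.00483) and 0.62 (limma adjusted p = 0.00550).

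Exons of Hvcn1 overlap exons of Tctn1 on the opposite strand, and the strand setting of the counting is not given in the sources used here. Tctn1 was low, at 1.5 to 1.87 FPKM over all libraries. Neutrophils and B cells also use Hvcn1. The neutrophil and monocyte markers summed to 1.71 to 18.4 FPKM over the study, widest in PKR knockout, and 0 of the 2 tested markers passed in 5xFAD EGFP against wild type in limma or limma-voom, with 0 at an unadjusted p under 0.05.

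Kcnk6 encodes TWIK-2, a two-pore-domain potassium channel that carries potassium out of macrophages after ATP. It lies on chromosome 7 from 29221926 to 29232515, minus strand. Its level was 46.6, 37.9 and 23.2 FPKM in WT EGFP, 23.8 and 22.9 FPKM in 5xFAD EGFP, 22.9, 30.0, 28.5 and 20.6 FPKM with circRNA, and 27.0, 23.5, 26.9 and 23.9 FPKM in PKR knockout. WT EGFP replicates 1 and 2 were above all other libraries, and replicate 3 lay within the 5xFAD range. The log2 difference between 5xFAD EGFP and wild type was -0.55 (SE 0.23, 95% interval -1.05 to -0.04, limma adjusted p = 0.152). Without WT EGFP replicate 3, the library with few microglial markers, it was -0.82 (limma adjusted p = 0.00558). In that setting the difference from wild type was -0.72 with circRNA (limma adjusted p = 0.00314) and -0.71 in PKR knockout (limma adjusted p = 0.00255), against -0.44 in both with all libraries (limma adjusted p = 0.119 and 0.0952). Without WT EGFP replicate 1 the 3 differences were smaller, at -0.33, -0.23 and -0.23 (limma adjusted p = 0.397, 0.411 and 0.376). Median-ratio scaling gave the call with circRNA alone (-0.51, limma adjusted p = 0.0408). Rescaling each library to the same sum also gave the call in these comparisons, at -0.72, -0.72 and -0.66. That rescaling moves the median of all genes in 5xFAD EGFP against wild type from -0.03 to -0.17.

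Kcnk13 encodes THIK-1, the two-pore-domain channel that gives resting microglia their tonic potassium conductance. It lies on chromosome 12 from 99964499 to 100062682, plus strand. Its level was 9.79, 10.1 and 7.63 FPKM in WT EGFP, 10.3 and 9.89 FPKM in 5xFAD EGFP, 9.98, 10.8, 11.8 and 9.92 FPKM with circRNA, and 10.1, 10.8, 10.0 and 11.3 FPKM in PKR knockout. All groups overlapped, and WT EGFP replicate 3 was again the lowest library. The log2 difference between 5xFAD EGFP and wild type was 0.13, with a 95% interval of -0.11 to 0.38 (limma adjusted p = 0.502). The difference was smaller than the spread of the wild type libraries, and the interval allows a change in either direction. Without WT EGFP replicate 3 it was 0.02.

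Trpv2 lies on chromosome 11 from 62574486 to 62600515, plus strand. Its level was 9.95, 11.0 and 7.35 FPKM in WT EGFP, 9.28 and 9.39 FPKM in 5xFAD EGFP, 9.35, 11.4, 12.5 and 9.29 FPKM with circRNA, and 11.5, 11.1, 10.5 and 9.38 FPKM in PKR knockout. The groups overlapped. Its log2 difference between 5xFAD EGFP and wild type was 0.00, with a 95% interval of -0.33 to 0.34 (limma adjusted p = 0.993), and -0.15 without WT EGFP replicate 3 (limma adjusted p = 0.469).

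Within the wild type and circRNA groups, Kcnk6, Hvcn1, Trpv2 and Kcnk13 were lowest where the microglial markers were lowest. In wild type all 4 were lowest in replicate 3, which had 2811 FPKM of summed microglial markers. In the circRNA group all 4 were lowest in replicate 4, which had the lowest sum of that group, 3333 FPKM. Replicate 3 of that group, with the highest sum in the study (4995 FPKM), had the highest Hvcn1, Trpv2 and Kcnk13. Kcnj2 was also lowest in these libraries, at 5.15 and 33.9 FPKM. Kcna3 was lowest in replicate 4 of the circRNA group too (5.44 FPKM), and highest in its replicate 1 (7.43 FPKM). This order did not hold for all of these genes in the other groups. In PKR knockout, replicate 1 had the lowest sum of markers (3767 FPKM) and the highest Trpv2 (11.5 FPKM) and Kcnk6 (27.0 FPKM) of its group, and in 5xFAD EGFP Trpv2 was higher in replicate 2, which had fewer markers. The part of cell content in the differences between groups was not tested.

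**Figure D2:**
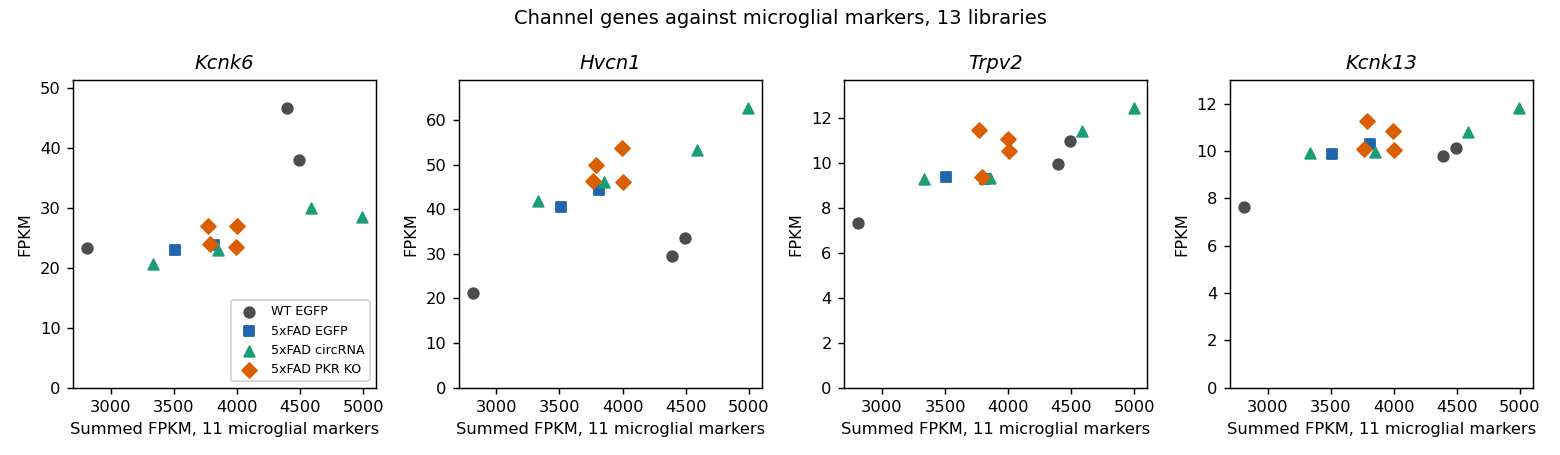
FPKM of Kcnk6, Hvcn1, Trpv2 and Kcnk13 (vertical axes from 0) against the summed FPKM of 11 microglial markers (horizontal axes) in the 13 libraries, coloured by group. WT EGFP replicate 3 lies at the far left, at 2811 FPKM of markers, with the lowest Hvcn1, Trpv2 and Kcnk13 of the study.

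Kcnn4 encodes KCa3.1, a potassium channel opened by calcium through bound calmodulin. It lies on chromosome 7 from 24370263 to 24386690, plus strand. Its level was 0.43, 0.562 and 0.542 FPKM in WT EGFP, 0.446 and 0.42 FPKM in 5xFAD EGFP, 0.351, 0.582, 0.593 and 0.513 FPKM with circRNA, and 0.42, 0.447, 0.271 and 0.303 FPKM in PKR knockout. It lay below the mean of 1 FPKM required for testing and was the only member not tested. The values rested on 82 to 160 fragments a library, a counting error of 7.91% to 11.0%, and all groups overlapped. In a fit without the filter no tested comparison called it. The largest of its tested differences was -0.15 in PKR knockout against wild type (limma adjusted p = 0.0966 over 18291 genes). Between circRNA and PKR knockout, which was not tested, the difference was 0.15.

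The order of the levels differed between wild type and 5xFAD. In WT EGFP it ran Kcnk6 (35.9 FPKM), Hvcn1 (28.1), Trpv2 (9.43), Kcnk13 (9.19), Kcnj2 (5.77), Kcna3 (1.36) and Kcnn4 (0.512). The libraries of Kcnk6 and Hvcn1 overlapped, as did those of Trpv2 and Kcnk13, so neither pair can be ordered. In 5xFAD EGFP it ran Hvcn1 (42.5 FPKM), Kcnj2 (31.4), Kcnk6 (23.4), Kcnk13 (10.1), Trpv2 (9.33), Kcna3 (7.28) and Kcnn4 (0.433), with no overlap between neighbours in 2 libraries. Hvcn1, Kcnj2 and Kcnk6 kept the first 3 places in the circRNA and PKR knockout groups. In PKR knockout Trpv2, Kcna3 and Kcnk13 all had a mean of 10.6 FPKM and overlapping libraries, whereas with circRNA Kcna3 was below both.

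Of the 6 members tested, 2 passed the threshold in 5xFAD EGFP against wild type, Kcnj2 and Kcna3, both higher, while 14.0% of all genes tested passed and 7.65% passed as higher. The libraries of 3 of the 6, these and Hvcn1, did not overlap, beside 37.6% of all genes tested. Each of the 6 was above 1 FPKM on average in every group, so none entered the test through 1 group alone. Leaving out either 5xFAD EGFP library, which leaves a lone sample assumed to vary like the other groups, kept both calls. Against wild type 2 of 5 members tested passed with circRNA and 2 of 5 in PKR knockout, Kcnj2 and Hvcn1 in both, beside 25.8% and 37.0% of all genes. With backgrounds of this size, those counts are no result about the channels as a set.

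The circRNA vector was then compared with the EGFP vector within 5xFAD. None of the 5 members tested passed in limma, 0 of the 5 had an unadjusted p under 0.05, and limma-voom on recovered fragments also called 0. Of all genes 0.0% passed in limma, with 523 at an unadjusted p under 0.05, and limma-voom called 0 genes. Kcnj2 had the smallest unadjusted p of the 5 (0.0822), with a log2 difference of 0.23 and a 95% interval of -0.03 to 0.49. All 4 circRNA libraries, at 33.9 to 40.3 FPKM, were above both EGFP libraries at 31.4 FPKM. It was the 1 member of 6 whose libraries did not overlap, beside 19.3% of all genes tested. For Hvcn1 the difference was 0.24 (-0.14 to 0.63), for Trpv2 0.16 (-0.16 to 0.48), for Kcnk6 0.11 (-0.37 to 0.58) and for Kcnk13 0.06 (-0.17 to 0.30). The intervals of all 5 include 0 and do not show that the groups are alike.

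PKR knockout was compared with the same 2 EGFP libraries, which both comparisons share. None of the 5 members tested passed in limma, 0 had an unadjusted p under 0.05 and limma-voom called 0, beside 0.0832% of all genes in limma. The libraries of 2 of 6 members, Kcna3 and Hvcn1, did not overlap, beside 34.8% of all genes tested. Kcna3 was chosen on these knockout libraries, so nothing is read from that count. The log2 differences were 0.03 for Kcnj2 (95% interval -0.23 to 0.29), 0.20 for Hvcn1 (-0.19 to 0.59), 0.17 for Trpv2 (-0.15 to 0.48), 0.11 for Kcnk6 (-0.37 to 0.59) and 0.06 for Kcnk13 (-0.18 to 0.29). The knockout libraries differ from the rest in depth and in carrying library names, so a difference in preparation and the knockout cannot be told apart. The 6 oligodendrocyte markers summed to 218 to 370 FPKM in the knockout libraries and to 630 and 671 FPKM in 5xFAD EGFP (median log2 difference -1.59, with 0 of 6 past the threshold in limma or limma-voom and 4 at an unadjusted p under 0.05 in limma). Their part in these differences, that of Kcna3 included, was not tested. Between circRNA and PKR knockout the other 5 tested members had log2 differences of 0.20 (Kcnj2), 0.04 (Hvcn1), 0.01 (Kcnk13), 0.00 (Kcnk6) and 0.00 (Trpv2), and their libraries overlapped.

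**Figure D3:**
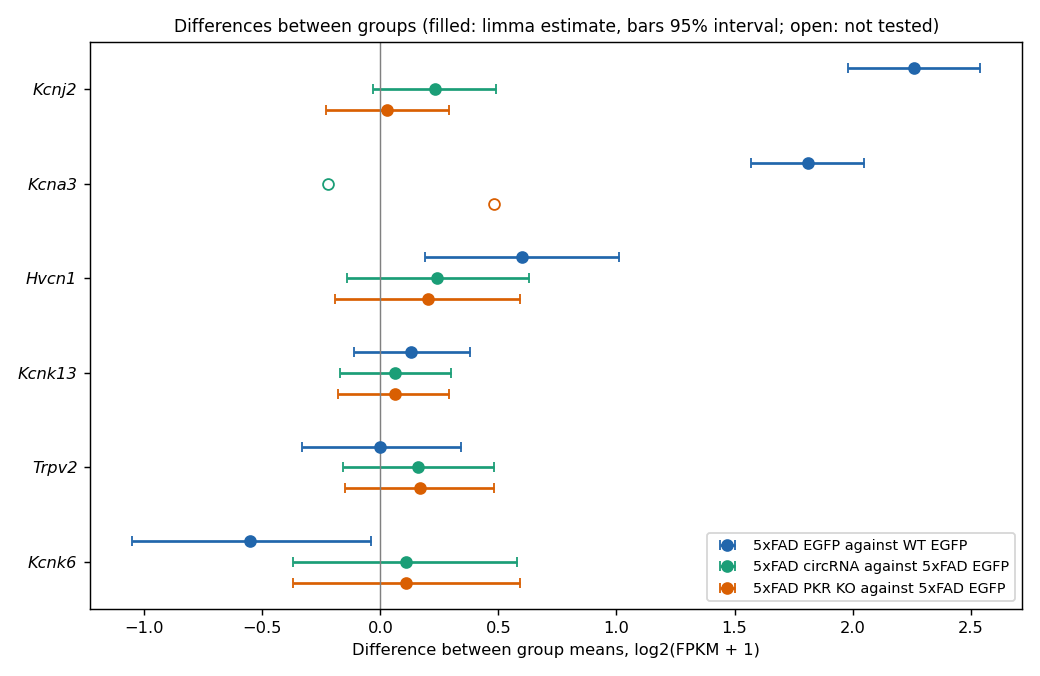
Differences between group means on the log2(FPKM + 1) scale (horizontal axis) for the 6 members above the filter in 3 comparisons, with filled points for limma estimates, bars for 95% intervals and open points for Kcna3 differences that were not tested. Kcnj2 at 2.26 and Kcna3 at 1.81 in 5xFAD EGFP against wild type lie far to the right of 0, and the intervals of the tested differences within 5xFAD include 0.

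The 5 potassium channel members were set in their family of 90 Kcn genes, which holds pore-forming and auxiliary subunits. By mean FPKM, Kcnk6 was first and Kcnj2 seventh in WT EGFP, and Kcnj2 was first and Kcnk6 second in each 5xFAD group. Kcna3 ranked 18 in wild type, 5 in 5xFAD EGFP, 6 with circRNA and 3 in PKR knockout, and Kcnk13 ranked 4 in all groups. The ranks of Kcna3 with circRNA and in PKR knockout restate the contrast that led to its choice. The 5 members made up 42.3%, 43.7% and 25.3% of the summed FPKM of the family in WT EGFP replicates 1, 2 and 3, so the lowest share was that of the library that stood apart. They made up 48.3% to 51.6% in 5xFAD EGFP, 44.9% to 66.2% with circRNA and 55.2% to 62.9% in PKR knockout. Kcna3, chosen on the circRNA and PKR knockout libraries, is part of these sums, so nothing is read from the difference between those groups.

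Of the 85 other Kcn genes, 16 passed the filter. In 5xFAD EGFP against wild type, where 14.0% of all genes passed, 1 of these rose and 3 fell. Their median log2 change was -0.11 beside -0.03 over all genes. Kcnma1, the pore of the large-conductance calcium-activated channel, rose from 1.64 ± 0.26 to 2.93 ± 0.09 FPKM, by 0.58 (limma adjusted p = 0.00166). Kcnd1, a voltage-gated A-type channel, fell by 0.71 on the log2 scale (limma adjusted p = 0.00476). The inward rectifier Kcnj12 fell by 0.61 and the Kv channel-interacting protein Kcnip3 by 0.44 (limma adjusted p = 0.00554 and 0.0435). Against wild type 1 rose and 4 fell with circRNA, and 2 rose and 6 fell in PKR knockout, where 25.8% and 37.0% of all genes passed. The highest of the 85 were Kcnj10, an astrocyte channel, at 10.7 ± 6.35 FPKM in wild type and 12.6 ± 0.63 FPKM in 5xFAD EGFP, and Kcnj13, at 12.8 ± 7.69 and 5.14 ± 1.21 FPKM. Within 5xFAD, limma and limma-voom called 0 of the 16 with circRNA or in PKR knockout against EGFP, with 0 and 3 at an unadjusted p under 0.05.

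**Figure D4:**
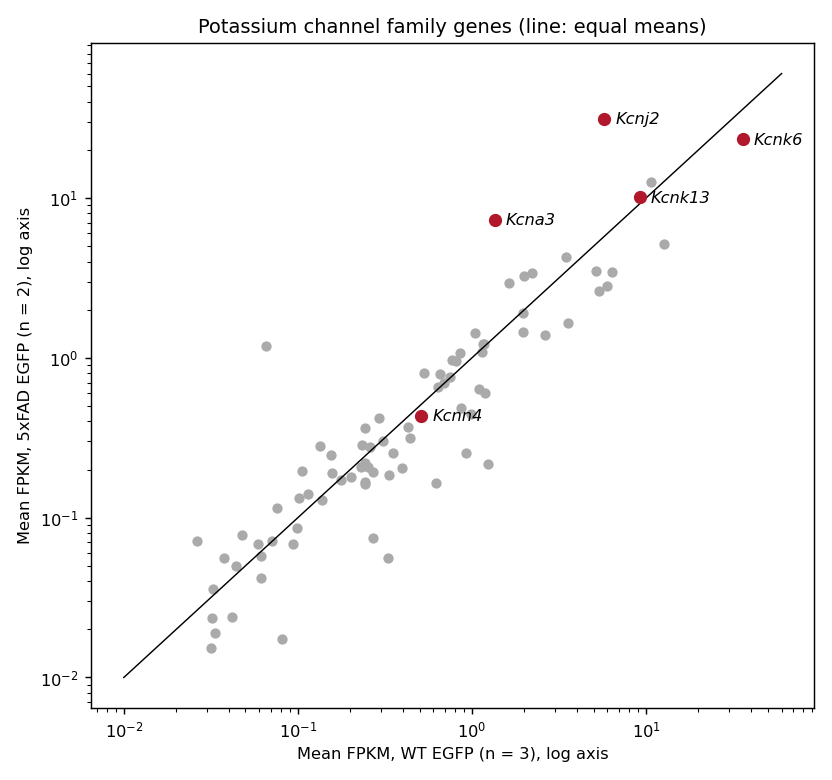
Mean FPKM of Kcn family genes in WT EGFP (horizontal log axis, n = 3) and 5xFAD EGFP (vertical log axis, n = 2), for the 83 genes above 0.01 FPKM in both, with the 5 members named and the line of equal means. Kcnj2 and Kcna3 lie above the line, Kcnk13 and Kcnn4 near it and Kcnk6 below it.

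Other channel and transport genes were counted in 5xFAD EGFP against wild type, where 14.0% of all genes passed. Among 6 tested TRP channel genes, 0 rose and 1 fell, the mechanically and heat-gated Trpv4, from 6.48 ± 1.30 to 3.21 ± 0.31 FPKM (limma adjusted p = 0.0228). Of 5 genes for store-operated calcium entry, the Orai channels and their Stim sensors, limma and limma-voom called 0, with 1 at an unadjusted p under 0.05. Among 13 chloride and volume-regulated anion channel genes 2 rose and 1 fell. The lysosomal chloride-proton exchanger Clcn7 rose from 9.65 ± 1.09 to 13.2 ± 0.47 FPKM (limma adjusted p = 0.0284), Lrrc8d rose by 0.37 and the scramblase Ano6 fell by 0.44. Among 10 proton, bicarbonate and lactate transporter genes 1 rose and 0 fell, the lactate exporter Slc16a3, from 3.66 ± 0.88 to 8.80 ± 1.24 FPKM (limma adjusted p = 0.00103). The medians of these 4 lists were -0.25, -0.04, -0.05 and -0.07.

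Among 18 functional partners of the channels, 3 rose and 0 fell in 5xFAD EGFP against wild type, near the 14.0% of all genes, with a median log2 change of 0.25 beside -0.03 over all genes. Cybb, the catalytic subunit of the phagocyte NADPH oxidase whose acid Hv1 carries out, was at 2.23 ± 0.41 and 9.02 ± 1.11 FPKM, a rise of 1.64 (limma adjusted p = 0.000319). Il1b, the interleukin whose processing follows potassium efflux, rose by 1.45 (limma adjusted p = 0.00399), and the ATP-gated channel P2rx4 rose by 0.58 (limma adjusted p = 0.00415). Against wild type 7 rose and 0 fell with circRNA, where 25.8% of all genes passed, and 7 rose and 1 fell in PKR knockout, where 37.0% passed, with a median of 0.29 in both. With circRNA Cybb rose by 1.98 (limma adjusted p = 7.06e-06). In PKR knockout Nlrp3, the sensor that responds to potassium efflux, was at 28.1 ± 2.94 FPKM (SD, n = 4) against 13.6 ± 3.62 FPKM (SD, n = 3), a rise of 1.02 (limma adjusted p = 0.000382). The gene that fell was P2ry12, the ADP receptor that opens THIK-1, at 179 ± 18.6 against 353 ± 92.2 FPKM (limma adjusted p = 0.00227).

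Genes with the most similar pattern to each member were ranked by Pearson r of log2(FPKM + 1) over the 13 libraries, as a description without a test. All points share their libraries, and for members that differ between wild type and 5xFAD that difference enters r. The 5 genes nearest to Kcna3 were Egr2 (r = 0.987), Ptger4 (0.982), Tcim (0.982), Akap5 (0.977) and Maff (0.975). Egr2, a zinc finger transcription factor, averaged 1.63 FPKM in WT EGFP, 8.10 in 5xFAD EGFP, 7.24 with circRNA and 11.7 in PKR knockout, the same order as Kcna3. Egr2 was picked for its high r, so the shared order follows from that pick. The gap between circRNA and PKR knockout that led to the choice of Kcna3 also enters this r. Nearest to Kcnj2 were Ptchd1 (0.997), Lpl (0.995) and Igf1 (0.993), of which Lpl, a lipoprotein lipase, averaged 0.548 FPKM in WT EGFP and 23.5 FPKM in 5xFAD EGFP. Nearest to Hvcn1 were Sirpa (0.993), Cotl1 (0.986) and Ppt1 (0.985). For Kcnk13 they were Cd86 (0.978), Gm49380 (0.958) and Pycard (0.955), for Kcnk6 Cbl (0.976), Ifngr1 (0.974) and Ankrd44 (0.968), and for Trpv2 Coro1a (0.976), Cd300c2 (0.957) and Psap (0.946). For Kcnn4 the highest value was lower, 0.864 for 5730455P16Rik.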

How the data were processed

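RNA of microglia was measured in 13 libraries. The authors deposited 1 table of FPKM values with 1 column a library, not pooled. The submitters' processing notes name Bowtie2 2.3.5, HISAT2 2.1.0, featureCounts 1.5.1 and build mm10, without their roles, and per the labels' protocols the libraries were stranded and ribosomal RNA was depleted. The annotation and strand setting are not given in the sources used here.

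FPKM is divided by the library total, so a change in abundant genes can move others. Gene lengths from GENCODE M21 turned low FPKM values (under 0.3) into fragments, of which 90.3% to 92.3% a library were whole within 0.02 fragments, against 4% by chance. This gave the depths. Intervals and errors from fragments cover counting error only.

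Groups followed the titles. limma 3.58.1 in R 4.3.3 was fitted on log2(FPKM + 1) of the 10817 genes averaging 1 FPKM or more, with a mean for each group (9 residual degrees of freedom), eBayes with a trend, two-sided tests and Benjamini-Hochberg adjustment over all genes of a comparison at a threshold of 0.05. The fit was tested on simulated data. p-values measure the spread between libraries, and the labels do not say that each library came from a separate animal. Kcnab2 is on both the Kcn and the partner list. Members, gene lists and alternatives were chosen with earlier results of these data known. Named genes were the 7 members, those of highest r with each, and in each list the 3 of highest mean and up to 5 a direction with the largest passing change, of which the text gives a part. Alternatives were a pseudocount of 0.1, no filter, 2 scalings, the 2 groups alone, the replicate block, each library left out and, added after seeing the data, limma-voom on recovered fragments. Figures were drawn with matplotlib 3.10.9.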

Additional observations from a re-analysis of the deposited data

How the results depend on the processing

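The counts of members past the threshold stayed within 1.5 times of their value under all 7 alternatives and with any library left out, at 2 or 3 of 6 in 5xFAD EGFP against wild type, 2 or 3 of 5 with circRNA and in PKR knockout against wild type, and 0 in both comparisons within 5xFAD. The Kcnj2 change in 5xFAD EGFP against wild type ranged from 2.11 to 2.45 and the Kcna3 change from 1.71 to 2.42 over the alternatives, with limma adjusted p-values of at most 0.000374 for both. The Kcna3 difference between circRNA and PKR knockout ranged from -0.80 to -0.71, and from -0.79 to -0.65 with a library left out. That contrast led to the choice of the gene, so its range is a description and not support. Small differences changed sign. Under rescaling to the same sum, Kcnk13 was at -0.03, -0.04, -0.07 and -0.02 in 5xFAD EGFP against wild type, circRNA against EGFP, circRNA against wild type and PKR knockout against wild type. There Trpv2 was at -0.15 in 5xFAD EGFP, -0.10 with circRNA and -0.04 in PKR knockout against wild type, Kcnk6 at -0.01 in circRNA against EGFP, and Kcnj2 at -0.03 in PKR knockout against EGFP. Under median-ratio scaling Kcnk13 was at -0.03 in circRNA against EGFP and -0.08 in circRNA against PKR knockout, and it passed in PKR knockout against wild type (0.22, limma adjusted p = 0.0453). With a library left out Trpv2 ranged from -0.15 to 0.11 in 5xFAD EGFP against wild type, and Kcnj2 from -0.05 to 0.10 in PKR knockout against EGFP. The causes were not tested.

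With the replicate number as a block, Trpv2 in 5xFAD EGFP against wild type was at -0.03, and the block changed no call of a member. After the group means were removed, same-numbered libraries of these 2 groups correlated at -0.03 and 0.27, and those of PKR knockout and EGFP at 0.27 and 0.38. The range was -0.42 to 0.69 for circRNA and wild type, and -0.18 to 0.58 for PKR knockout and wild type. For circRNA and PKR knockout it was 0.04 to 0.55, and for circRNA and EGFP -0.02 to 0.17. In each comparison the mean was higher for same-numbered than for other pairs, as at 0.33 against -0.11 for PKR knockout and EGFP. The numbers are not shown to pair the libraries, and a shared replicate effect is not settled. In PKR knockout against EGFP the block called 22 genes.

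Counts over all genes moved more. In 5xFAD EGFP against wild type 1514 genes passed, 3709 after rescaling, 509 with the 2 groups alone and 566 to 1998 with a library left out (566 without 5xFAD EGFP replicate 2, 666 without replicate 1). For circRNA against wild type 2796 passed, 5676 after rescaling and 1725 with the 2 groups alone. For PKR knockout against wild type 3997 passed, and 6595 after rescaling. For PKR knockout against EGFP 9 passed, 0 with a pseudocount of 0.1, without the filter, after rescaling and under limma-voom, 46 under median-ratio scaling, 577 with the 2 groups alone and 0 to 2 with a library left out. At these zero counts 1440, 1882, 1736 and 1478 genes had an unadjusted p under 0.05. Depth limits Kcnn4 and wild type Kcna3, which had as few as 82 and 120 fragments a library.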

Other observations

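Kcnk9, which encodes the acid-sensitive two-pore-domain potassium channel TASK-3, lay just below the filter, with a mean of 0.96 FPKM over the 13 libraries, and was chosen after its values were seen. Its level was 0.0585, 0.0529 and 0.0854 FPKM in WT EGFP, 1.36 and 1.03 FPKM in 5xFAD EGFP, 1.19, 1.12, 0.662 and 1.08 FPKM with circRNA, and 1.39, 1.41, 1.51 and 1.53 FPKM in PKR knockout. Every 5xFAD library was above every wild type library, and the PKR knockout libraries were above every other library. These levels rested on 31 to 53 fragments in wild type and 368 to 1273 fragments in 5xFAD. The mean was 0.0656 ± 0.017 FPKM (SD, n = 3) in wild type and 1.19 ± 0.23 FPKM (SD, n = 2) in 5xFAD EGFP, a ratio of 18.2. Because the gene was picked for this pattern, no test is given.

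Genes were also ranked by r after the group means were removed, again as a description over 13 libraries in 4 groups. Sirpa stayed nearest to Hvcn1, and Coro1a was again among the 3 nearest to Trpv2. Nearest to Hvcn1 were Sirpa (r = 0.985), Ctsa (0.981) and Limd2 (0.979), to Kcnk13 Ehd4 (0.989), Plxnb2 (0.983) and Spata13 (0.980), and to Kcnk6 Osbpl11 (0.982), Gng2 (0.981) and Nfya (0.981). For Trpv2 they were Slc35c2 (0.985), Coro1a (0.983) and Arhgap27 (0.978), and for Kcnj2 Slc16a10 (0.955), Galnt7 (0.934) and Evi2b (0.933). Kcna3 lay nearest to Mtmr2 (0.956), followed by Ndufb10 (0.861), Rps27 (0.857), Lars2 (0.844) and Pet117 (0.811), and Egr2 was not among these 5.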
